A study of Mus musculus with 6 samples.

Results

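Trp73, Reln, Eomes, Calb2, Ndnf and Cxcr4, 6 genes known together with Lhx5 in Cajal-Retzius neurons, were followed across ribosome-bound and unbound RNA of the mouse hypothalamus. All 6 were found by symbol among the 32531 gene rows of each count table. They were picked partly because some of them had been seen to be higher in ribosome-bound RNA. The difference between the fractions was thus among the values they were chosen by. It is given for them as a description with no test result.

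The mice were adult, untreated controls of the Lhx5-TRAP line DT154, in which Lhx5 drives an EGFP-tagged copy of the ribosomal protein L10a. Tagged polysomes were pulled from homogenized hypothalamus with anti-EGFP antibodies (IP, 3 libraries), and the reference was the unbound RNA of the same line (3 libraries). All 6 libraries therefore come from animals that carry the transgene, from a line known here by one name, and how many animals went into a library is not given. The sample type in the labels reads unbound where the titles read input, and the group is called unbound here. Cells are tagged wherever the Lhx5 driver is active, so a gene can be higher in IP RNA in any tagged cell type. In bulk RNA, fewer cells of a type and less RNA per cell cannot be told apart.

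Cajal-Retzius neurons are early-born glutamatergic neurons of the outermost layer of the developing cortex and hippocampus, where they secrete reelin, and most of them are lost after birth. Lhx5 and its relative Lhx1 are expressed in them, and Trp73 is needed for their survival. Each of the other members is also used elsewhere: Calb2 in many interneurons and diencephalic neurons, Eomes in intermediate progenitors of the cortex, Reln and Ndnf in cortical interneurons, and Cxcr4 in immune and vascular cells.

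Levels are reads per 1000000 gene reads (CPM) after TMM scaling, which corrects for differences in library composition. The IP libraries held 32471045 to 46293837 gene reads and the unbound libraries 32926146 to 40768577. Lhx5 itself stood at 56.7, 58.1 and 70.5 CPM in IP replicates 1 to 3, against 2.03, 1.86 and 6.28 CPM in unbound replicates 1 to 3. Unbound replicate 3 stood apart from the other unbound libraries: its summed level of 7 genes of cortical glutamatergic neurons was 29.5 CPM, beside 285 and 458 CPM in unbound replicates 1 and 2, and the 5 choroid plexus genes summed to 70.1 CPM in it, against 2027 and 2221 CPM. Values without that library are given beside the results that it moves most.

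For 4 of the 6 members, Eomes, Trp73, Calb2 and Ndnf, the lowest IP library exceeded the highest unbound one. The same held for 27.1% of the 16991 genes that passed the low-count filter, and nothing is read from the comparison, since the fractions helped to choose the members. Reln and Cxcr4 had overlapping groups and lower means in IP. The 6 genes thus did not all differ in the same direction, which is given as a description only. All 6 members passed the filter, and their median log2 fold change was 2.27, beside a median of -0.01 over all genes tested. Nothing is read from these medians either, for the same reason.

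**Figure D1:**
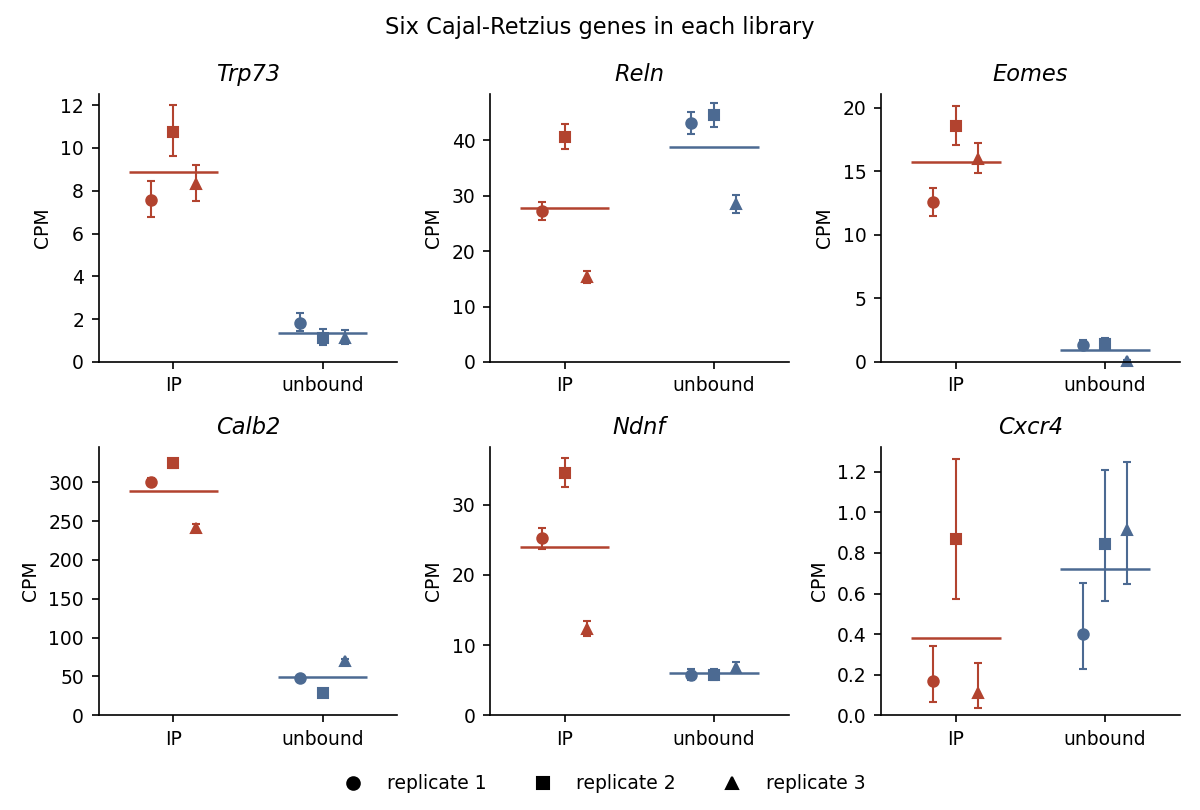
Level of each of the 6 genes in CPM (linear axes from 0) in the 3 IP libraries (left) and the 3 unbound libraries (right). Symbols mark replicate numbers, vertical bars are exact 95% binomial intervals of the read count and horizontal lines are group means. Eomes, Trp73, Calb2 and Ndnf separate the groups, while Reln and Cxcr4 do not.

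Eomes encodes a T-box transcription factor, also called Tbr2, that is known for its role in cortical intermediate progenitors. Its mm10 position is chromosome 9, 118478212 to 118486132, plus strand. It had 12.6, 18.5 and 16.0 CPM in IP replicates 1 to 3, against 1.33, 1.42 and 0.048 CPM in unbound replicates 1 to 3. The lowest IP library was 8.83 times the highest unbound library. Only 2 reads stood behind the value of unbound replicate 3 (95% interval 0.0058 to 0.17 CPM), where replicates 1 and 2 had 53 and 49 reads. The log2 fold change of IP over unbound was 4.08 ± 0.82 (SE), and 18 of the 16991 tested genes had a larger one. Without unbound replicate 3 the value was 3.50, so the size of the difference, but not its direction, depended on that library.

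Trp73 encodes p73, a member of the p53 family that is made in a long form and an N-terminally shortened form from separate promoters. Its mm10 position is chromosome 4, 154056253 to 154140208, minus strand. It had 7.56, 10.8 and 8.34 CPM in IP replicates 1 to 3, against 1.83, 1.13 and 1.13 CPM in unbound replicates 1 to 3. The lowest IP library was 4.13 times the highest unbound library, and the replicates of a group differed by at most 1.62-fold. The log2 fold change was 2.70 ± 0.30 (SE), with 66 genes above it. The counts are per gene, so the forms of p73 cannot be told apart in them.

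The promoter windows of the members are shown because Eomes and Trp73 had the largest fold changes of the 6 and Reln did not follow them. RefSeq sequence (GRCm38.p6) was at hand for 4 of the 6 members, with Trp73 having a window near the 5' end of the gene and one further inside it. Both Trp73 windows lie within the position given for the gene above, since the starts used here are those of RefSeq and can differ from it. The 250 bases before each start are printed 5' to 3' on the strand of the gene, for Eomes at chr9:118477939-118478188 (plus), for Trp73 at chr4:154139876-154140125 and chr4:154097174-154097423 (both minus), and for Reln at chr5:22344706-22344955 (minus). Capitals mark TATAA in the last 50 bases before the start.
Eomes: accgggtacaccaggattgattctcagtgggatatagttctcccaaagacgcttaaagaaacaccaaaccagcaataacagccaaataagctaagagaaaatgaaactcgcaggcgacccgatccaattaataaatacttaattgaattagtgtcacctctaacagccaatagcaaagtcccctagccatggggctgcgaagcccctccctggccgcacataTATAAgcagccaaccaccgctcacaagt
Trp73, 5' end of the gene: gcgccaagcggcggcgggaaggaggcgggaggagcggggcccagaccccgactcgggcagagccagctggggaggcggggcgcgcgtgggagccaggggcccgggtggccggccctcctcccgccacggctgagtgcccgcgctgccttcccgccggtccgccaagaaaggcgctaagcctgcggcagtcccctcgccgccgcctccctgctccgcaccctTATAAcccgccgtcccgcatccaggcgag
Trp73, inside the gene: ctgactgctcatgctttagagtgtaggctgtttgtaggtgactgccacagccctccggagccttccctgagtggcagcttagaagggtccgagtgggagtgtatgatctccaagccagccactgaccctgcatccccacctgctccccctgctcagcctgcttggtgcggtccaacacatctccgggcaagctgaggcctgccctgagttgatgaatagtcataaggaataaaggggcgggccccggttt
Reln: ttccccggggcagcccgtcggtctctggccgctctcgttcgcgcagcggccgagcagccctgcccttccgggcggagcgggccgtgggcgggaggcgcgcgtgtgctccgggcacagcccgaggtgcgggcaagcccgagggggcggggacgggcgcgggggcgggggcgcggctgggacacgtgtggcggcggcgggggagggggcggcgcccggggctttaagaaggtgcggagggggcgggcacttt

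TATAA begins 28 bases before the RefSeq start of Eomes and 29 bases before the RefSeq start near the 5' end of Trp73. The window of Cxcr4, not printed, has it 30 bases before the RefSeq start. Of all 32851 promoter windows in the table, 4.93% hold TATAA on the gene's strand in those 50 bases. Neither TAATTA, a form of the sites bound by LIM homeodomain proteins, nor AGGTGTGA, a form of T-box sites, was found on either strand in any of the 5 member windows. TAATTA and AGGTGTGA occur in 4.84% and 1.12% of all windows. Shorter or variant forms, such as TAAT, which the printed Eomes window holds, were not searched for. The windows differed in base composition: Eomes had 46.4% G and C with 8 CpG, the Trp73 window further inside the gene 58.4% with 6, the window near the 5' end of Trp73 77.2% with 31 and Reln 80% with 37, beside medians of 52.4% and 6 over all windows.

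Calb2 encodes calretinin, a calcium-binding buffer protein of many neuron types. At chromosome 8, 110137502 to 110168210, minus strand, it was the member with the highest level per kilobase of exon in both fractions. It had 300.03, 324 and 241 CPM in IP replicates 1 to 3, against 48.1, 29.0 and 70.2 CPM in unbound replicates 1 to 3. Among the unbound libraries the values spread 2.42-fold, with replicate 3 highest, whereas the IP libraries spread 1.34-fold. The log2 fold change was 2.55 ± 0.31 (SE), with 79 genes above it, and it was 2.90 without unbound replicate 3.

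Ndnf encodes a secreted neuron-derived factor that marks interneurons of the outer cortex. Its mm10 position is chromosome 6, 65671590 to 65712326, plus strand. It had 25.2, 34.6 and 12.3 CPM in IP replicates 1 to 3, against 5.79, 5.73 and 6.72 CPM in unbound replicates 1 to 3. The unbound libraries lay within 1.17-fold of each other, while the IP libraries spread 2.80-fold, with replicate 3 lowest and 1.84 times the highest unbound library. The log2 fold change was 1.98 ± 0.34 (SE), and 158 genes had a larger one. It was 2.35 without both libraries of replicate 3.

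Reln encodes reelin, the large secreted glycoprotein by which Cajal-Retzius neurons guide the layering of the cortex. Its mm10 position is chromosome 5, 21884454 to 22344702, minus strand. It had 27.2, 40.6 and 15.3 CPM in IP replicates 1 to 3, against 43.1, 44.5 and 28.5 CPM in unbound replicates 1 to 3. The groups overlapped, since IP replicate 2 lay above unbound replicate 3. The log2 fold change was -0.48 ± 0.34 (SE), and it moved between -0.85 without IP replicate 2 and -0.18 without IP replicate 3. Replicate 3 was the lowest library in both fractions.

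Cxcr4 encodes a receptor for the chemokine Cxcl12, which guides Cajal-Retzius neurons along the meninges during development. At chromosome 1, 128588199 to 128592293, minus strand, it was the member with the lowest IP level per kilobase of exon. It had 0.17, 0.87 and 0.11 CPM in IP replicates 1 to 3, from 7, 27 and 5 reads, against 0.40, 0.84 and 0.91 CPM in unbound replicates 1 to 3, from 16, 29 and 38 reads. IP replicate 2 lay among the unbound libraries and the other IP libraries lay below them. The log2 fold change was -0.95 ± 0.80 (SE), and it was -2.34 without IP replicate 2.

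Replicate 2 was the highest and replicate 3 the lowest IP library for Reln, Ndnf, Calb2 and Cxcr4. The same order held among IP libraries for the summed markers of astrocytes (200, 321 and 129 CPM in replicates 1 to 3), microglia (22.1, 29.3 and 10.7 CPM) and cortical glutamatergic neurons (66.1, 114 and 48.0 CPM). It did not hold for every list: mammillary markers had the reverse order (195, 131 and 287 CPM), and pan-neuronal ones were lowest in replicate 1 (17253, 18238 and 18263 CPM). Of the 7 cortical markers 0 passed with all libraries, while 5 fell without unbound replicate 3 and 3 in the replicate block. Eomes and Trp73 were lowest in replicate 1 instead. The part of these other cells in the spread of Reln, Ndnf, Calb2 and Cxcr4 was not tested.

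Trp73, Reln and Eomes share 280, 246 and 118 exonic bases with the annotated antisense genes Trp73os, Gm10475 and Gm33460, and the strand setting of the counting is not given, so reads of these partners may be included. No exon of another gene overlaps Calb2, Ndnf or Cxcr4 in the annotation used. Among the genes described further on, Ebf2, Ebf3, Cacna2d2, Tbx3, Tbx18, Fgfr1, Fgfr3 and Necab1 have such partners on the other strand. Reads that could not be assigned between genes made up 1.61% ± 0.03 of the reads listed in IP libraries, against 8.31% ± 1.07 in unbound libraries (SD, n = 3 each), and their part in the values of overlapping genes was not tested.

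Dividing CPM by the summed length of all annotated exons put the members on a scale on which genes can be compared. In IP RNA, Calb2 led with 166 ± 24.4 CPM per kilobase (SD, n = 3). It was followed by Eomes (3.78 ± 0.72), Ndnf (2.38 ± 1.10), Trp73 (1.61 ± 0.30), Reln (1.17 ± 0.53) and Cxcr4 (0.21 ± 0.23), all in CPM per kilobase. Calb2 stood clear of the rest, and Cxcr4 lay below every library of the other members. Eomes and Ndnf, Ndnf and Trp73, and Trp73 and Reln overlapped in their ranges, so the order of these neighbours is not settled. Lhx5 stood at 23.0 ± 2.82 CPM per kilobase in IP, between Calb2 and Eomes.

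In unbound RNA the order was different, with Calb2 at 28.2 ± 11.8 CPM per kilobase, Reln at 1.63 ± 0.37 and Ndnf at 0.60 ± 0.055. Cxcr4 (0.40 ± 0.15), Trp73 (0.25 ± 0.073) and Eomes (0.22 ± 0.18 CPM per kilobase) came last and overlapped. Among the 23113 genes with a length, Calb2 was at rank 182 in IP and 1333 in unbound RNA, and Eomes at rank 7354 in IP and 14253 in unbound RNA. Reln kept a similar place in both, at rank 10349 in IP and 10260 in unbound RNA. The exon length of Reln, 23738 bases over all annotated forms, is longer than a single transcript, which lowers its level on this scale.

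**Figure D2:**
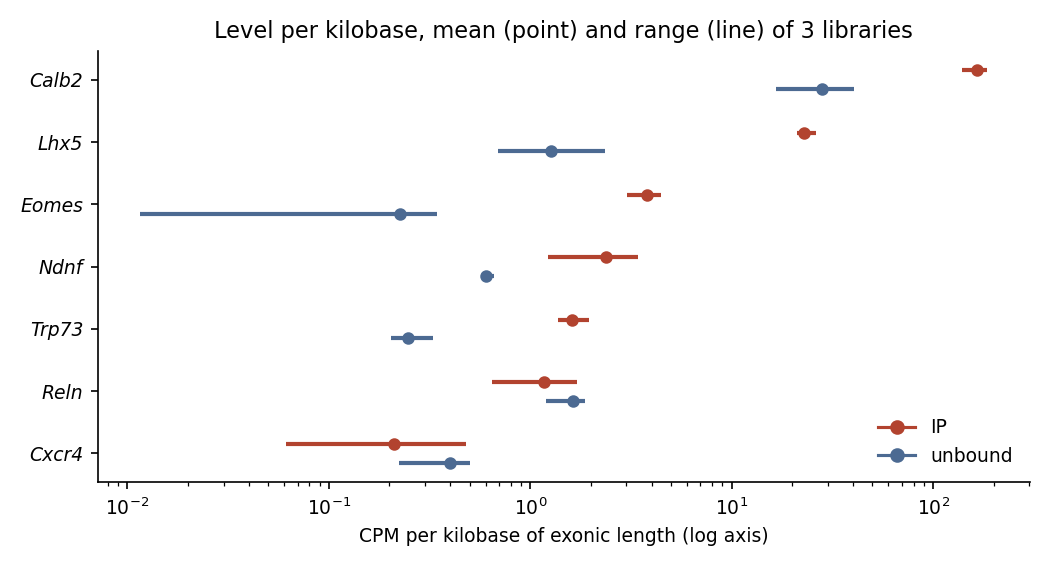
Level per kilobase of exonic length (log axis) of the 6 genes and Lhx5, with IP above unbound for each gene. Points are means and lines run from the lowest to the highest of 3 libraries. Calb2 leads in both fractions, and Eomes shows the widest unbound range because of unbound replicate 3.

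Patterns most like each member, except Cxcr4 for its low level, were sought as the smallest distance over the 6 libraries between log2 CPM values. Each gene was centred on its own mean. Galr1, a galanin receptor, was nearest to Trp73 (distance 0.23), before Chrm5, a muscarinic receptor (0.55), and Hist2h4 (0.56). Galr1 had 17.2, 23.7 and 16.0 CPM in IP, against 3.61, 2.41 and 2.59 CPM in unbound RNA, and like Trp73 it was highest in IP replicate 2. Sfrp2, a secreted Wnt antagonist (0.50), Pcbd1 (0.63) and Aard (0.63) were nearest to Calb2, and B3gnt6 (0.41), Slc27a3 (0.48) and the neurotensin receptor Ntsr1 (0.49) to Ndnf.

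Eomes had no close neighbour: Fezf1, a transcription factor of the ventromedial hypothalamus, was at 1.19, Trh, the thyrotropin-releasing hormone gene, at 1.39 and Tac2, the neurokinin B gene, at 2.09. Fezf1 had 68.4, 66.1 and 53.5 CPM in IP, against 5.24, 2.56 and 0.24 CPM in unbound RNA. Eomes and its 3 nearest genes were all lowest in unbound replicate 3. For Reln the nearest were Slc3a2 (0.27), Uxt (0.35) and Tnfrsf19 (0.36), which were lowest in replicate 3 of both fractions. Among the members themselves Trp73 and Calb2 were closest (1.08), followed by Calb2 and Ndnf (1.44), while Eomes lay 3.85 or more from every other member. All distances of Eomes include unbound replicate 3, where its value rests on 2 reads, and the part of that library in them was not tested.

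Of 10 other genes of Cajal-Retzius neurons, listed from general knowledge, 4 rose in IP, 0 fell and 6 did not pass (edgeR's quasi-likelihood test, Benjamini-Hochberg adjusted p under 0.05). Over all genes tested 21.1% were called higher and 23.2% lower. The list's median log2 fold change was 1.33, beside -0.01 over all genes. Results for some genes of the list, Lhx1 among them, were known when it was drawn up. The comparison with all genes is therefore not independent of these data.

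Nhlh2, a basic helix-loop-helix factor of developing neurons, had 59.1, 50.8 and 60.3 CPM in IP, against 7.85, 4.27 and 7.87 CPM in unbound RNA (log2 3.09 ± 0.24, adjusted p = 1.0e-04, edgeR). Car10, a carbonic anhydrase-related protein, had 345, 337 and 259 CPM in IP, against 107, 141 and 128 CPM in unbound RNA (log2 1.32 ± 0.17, adjusted p = 5.7e-04, edgeR). Both genes separated the groups completely. As for the members, such a rise can come from any tagged cell type. Ebf2, an early B cell factor family member of these neurons, had 32.4, 30.4 and 35.9 CPM in IP, against 5.36, 4.13 and 17.0 CPM in unbound RNA (log2 1.90, adjusted p = 0.022, edgeR). Cacna2d2, a calcium channel subunit, had 179, 157 and 96.0 CPM in IP, against 99.0, 73.1 and 76.8 CPM in unbound RNA (log2 0.79, adjusted p = 0.023, edgeR), with IP replicate 3 inside the unbound range. Ebf2 lost its call without IP replicate 1, IP replicate 3 or unbound replicate 1 (adjusted p 0.051 to 0.059, edgeR), and Cacna2d2 lost it without IP replicates 1 or 2 or unbound replicate 2 and under pan-neuronal scaling (log2 0.27).

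**Figure D3:**
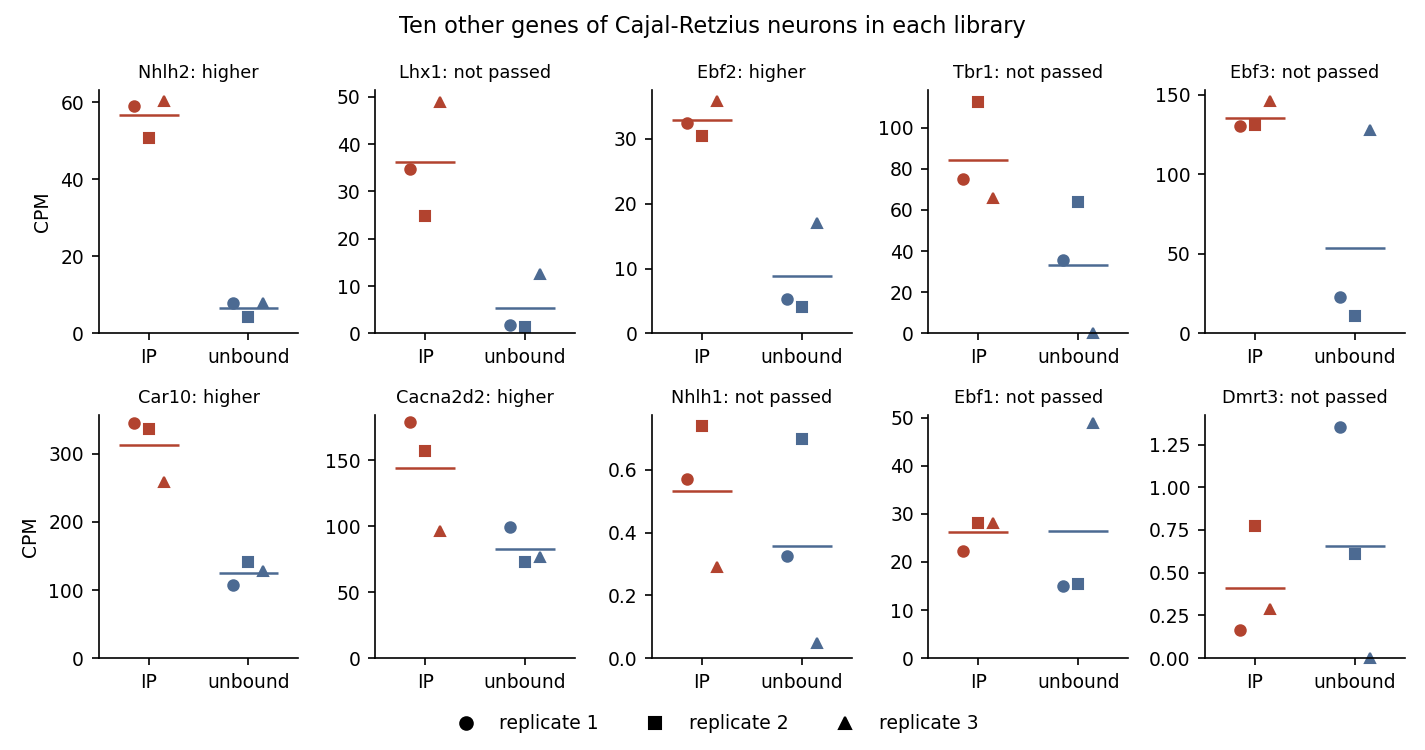
Level in CPM (linear axes from 0) of the 10 other genes of Cajal-Retzius neurons, IP left and unbound right, sorted by log2 fold change, with the edgeR call in IP beside each name. Symbols mark replicates and lines are group means. Lhx1, Ebf2, Ebf3 and Ebf1 are highest among unbound libraries in replicate 3, while Tbr1, Nhlh1 and Dmrt3 are lowest there.

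Several of the remaining calls in this list turned on unbound replicate 3. Ebf3 had 130, 131 and 146 CPM in IP, against 22.9, 10.9 and 128 CPM in unbound RNA, and did not pass with all libraries (log2 1.33, adjusted p = 0.28, edgeR). Without unbound replicate 3 it was at 2.999 (adjusted p = 5.7e-05, edgeR). Lhx1 had 34.7, 24.8 and 49.0 CPM in IP, against 1.83, 1.40 and 12.6 CPM in unbound RNA, and just missed the threshold (log2 2.77, adjusted p = 0.055, edgeR), and passed in the fit blocked by replicate number (log2 3.39, adjusted p = 0.0075, edgeR).

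Tbr1, a T-box factor of glutamatergic cortical neurons and Cajal-Retzius cells, had 74.9, 112 and 65.7 CPM in IP, against 35.7, 63.7 and 0.38 CPM in unbound RNA. The groups separated narrowly and the log2 fold change of 1.34 did not pass (adjusted p = 0.44, edgeR). Without unbound replicate 3, 8 of the 10 genes rose and 0 fell, with Lhx1 (log2 4.48), Ebf3, Ebf1 (0.78) and Tbr1 (0.75) added, and the same counts were found without both libraries of replicate 3. Without IP replicate 1, 2 rose. Nhlh1 and Dmrt3 stayed below 1.36 CPM in every library and did not pass with all libraries.

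Reelin binds the receptors Vldlr and Lrp8, which act through the adaptor Dab1 and Src-family kinases. Of 15 genes of this pathway tested, 5 fell in IP, 1 rose and 9 did not pass, with a median of -0.04. Without unbound replicate 3, 6 fell and 3 rose, as Dab1 (log2 -0.43) passed as lower and Crkl (0.43) and Adamts5 (0.92) as higher. Both receptors fell: Vldlr had 55.6, 59.7 and 38.4 CPM in IP, against 95.9, 93.3 and 78.9 CPM in unbound RNA (log2 -0.80, adjusted p = 0.0077, edgeR), and Lrp8 had 44.5, 54.5 and 39.8 CPM in IP, against 72.6, 73.9 and 72.4 CPM in unbound RNA (log2 -0.66, adjusted p = 0.0069, edgeR). Mean CPM of Dab1 was 107 in IP, against 139 in unbound RNA (log2 -0.37), which missed the threshold with all libraries (adjusted p = 0.063, edgeR) and met it in the blocked fit by replicate number (adjusted p = 0.033, edgeR).

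Among proteases that can cut reelin, Adamts2 rose, with 36.7, 36.03 and 26.2 CPM in IP, against 9.78, 8.69 and 12.04 CPM in unbound RNA (log2 1.70, adjusted p = 4.4e-04, edgeR). Adamts4 fell, with 2.28, 2.57 and 1.56 CPM in IP, against 9.02, 9.51 and 18.9 CPM in unbound RNA (log2 -2.55, adjusted p = 7.9e-04, edgeR). Adamts3 fell as well (log2 -1.59, adjusted p = 0.014, edgeR), a call lost without IP replicate 3 or unbound replicate 1, and Adamts5 did not pass with all libraries (log2 0.52). Pik3r1, a regulatory subunit of PI3 kinase, also fell (log2 -0.53), a call lost without IP replicate 2 or unbound replicate 1 (adjusted p = 0.058 and 0.063, edgeR). Fyn, Src, Crk and Crkl lay between -0.04 and 0.29 on the log2 scale and did not pass with all libraries.

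Cxcl12 and its decoy receptor Ackr3 were low and did not pass. Mean CPM of Cxcl12 was 4.98 in IP, against 6.91 in unbound RNA (log2 -0.48, adjusted p = 0.28, edgeR), and that of Ackr3 was 3.88 in IP, against 4.68 in unbound RNA (log2 -0.27, adjusted p = 0.59, edgeR). Of 10 genes of the Cxcl12 axis, 3 rose, Gnai2 (log2 0.74), Arrb2 (0.84) and Adrbk1 (0.59), 1 fell, Gnai3 (-0.47), and 6 did not pass, with a median of 0.21. These genes for an inhibitory G protein, an arrestin and a receptor kinase serve many receptors. None of the 3 rises passed under pan-neuronal scaling, and Gnai3 lost its call whenever a library other than IP replicate 3 or unbound replicate 3 was left out.

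The cells in which Cxcr4 is otherwise known gave low and lower values in IP. Of 11 microglia markers 10 fell and 0 rose, with summed levels of 10.7 to 29.3 CPM in IP, against 85.8 to 135 CPM in unbound RNA. Of 8 endothelial markers tested, 4 fell and 0 rose, with sums over the 9 listed of 2.09 to 5.18 CPM in IP, against 10.3 to 23.1 CPM in unbound RNA. Flt1 lost its call without unbound replicate 3 and in the replicate block, so that 3 fell. Of 7 leukocyte markers 2 were tested and 1, Ptprc, fell, with sums of 0.20 to 1.83 CPM in IP, against 3.60 to 8.59 CPM in unbound RNA, and Cd3e, S100a8 and S100a9 were at 0 in every IP library. Their part in the level of Cxcr4 was not tested.

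Relatives of the other members did not follow them as families. Of 12 genes of the p53 family and its targets, 2 fell, 0 rose and 10 did not pass, with a median of -0.26. Trp63, the gene of p63, fell, with 0.048, 0.16 and 0.40 CPM in IP, against 2.06, 1.51 and 3.24 CPM in unbound RNA (log2 -3.44, adjusted p = 0.0044, edgeR), so it lay on the other side of 0 from Trp73. Ccng1, the gene of cyclin G1 and a p53 target, fell too (log2 -0.65, adjusted p = 0.0065, edgeR). Mean CPM of Trp53 was 20.8 in IP, against 23.8 in unbound RNA (log2 -0.19) and did not pass.

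Of the 16 T-box genes besides Eomes only 5 had enough counts to be tested, and 1 rose, 3 fell and 1, Tbr1, did not pass, with a median of -0.65. Tbx3, a factor of the arcuate nucleus, had 3.28, 3.95 and 6.38 CPM in IP, against 1.96, 1.72 and 0.58 CPM in unbound RNA (log2 1.68, adjusted p = 0.020, edgeR), a call lost without IP replicate 3 and under pan-neuronal scaling (log2 1.14). Mga (log2 -0.65) and the meningeal and mesenchymal factors Tbx15 (-3.25) and Tbx18 (-4.32) fell. Tbx18 had 4.01 CPM in unbound replicate 3, beside 0.30 and 0.76 CPM in unbound replicates 1 and 2, and did not pass without it (log2 -2.65, adjusted p = 0.073, edgeR). Each call of these 3 genes was lost in at least 2 of the fits that left out 1 library. Tbx21, which is used with Eomes and Tbr1 in mitral and tufted cells of the olfactory bulb, stayed at or below 0.16 CPM in every library, and T was at 0 in all 6. Of 4 tested markers of those bulb cells 0 passed, with sums of 75.7 to 153 CPM in IP, against 19.2 to 244 CPM in unbound RNA, and 1 rose and 1 fell without unbound replicate 3. In the replicate block 1 fell.

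Of 6 calcium buffers tested besides Calb2, 1 fell, 0 rose and 5 did not pass, with a median of -0.47. Calb1, the gene of calbindin and the closest relative of calretinin, had 216, 169 and 209 CPM in IP, against 145, 116 and 48.0 CPM in unbound RNA (log2 0.94, adjusted p = 0.067, edgeR), with the groups apart in these libraries. It passed without unbound replicate 3 (log2 0.60, adjusted p = 0.014, edgeR), where 1 buffer rose and 2, with Necab1 (log2 -1.02) added, fell. Scgn, the gene of secretagogin, fell (log2 -2.11, adjusted p = 0.018, edgeR), a call lost without IP replicate 1 or unbound replicate 1. In the blocked fit by replicate number 3 fell, since Pvalb (log2 -0.70) and Necab1 (-0.65) passed as well.

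Ndnf can bind fibroblast growth factors and act on their receptors. Of 4 FGF receptor genes tested, Fgfr2 (log2 -2.20), Fgfr3 (-3.37) and Fgfrl1 (-2.79) fell and Fgfr1 (0.64) rose, with a median of -2.50. Fgfr1 had 61.4, 54.7 and 37.5 CPM in IP, against 33.2, 25.6 and 39.6 CPM in unbound RNA, and its groups overlapped. It lost its call in 8 of the 15 alternatives, among them the replicate block (log2 0.64, adjusted p = 0.070, edgeR). Fgfr2 shares 314 annotated exonic bases with Ctbp2. Fgfr3 is used by astrocytes, of whose 7 markers 7 fell, with sums of 129 to 321 CPM in IP, against 1152 to 1649 CPM in unbound RNA.

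**Figure D4:**
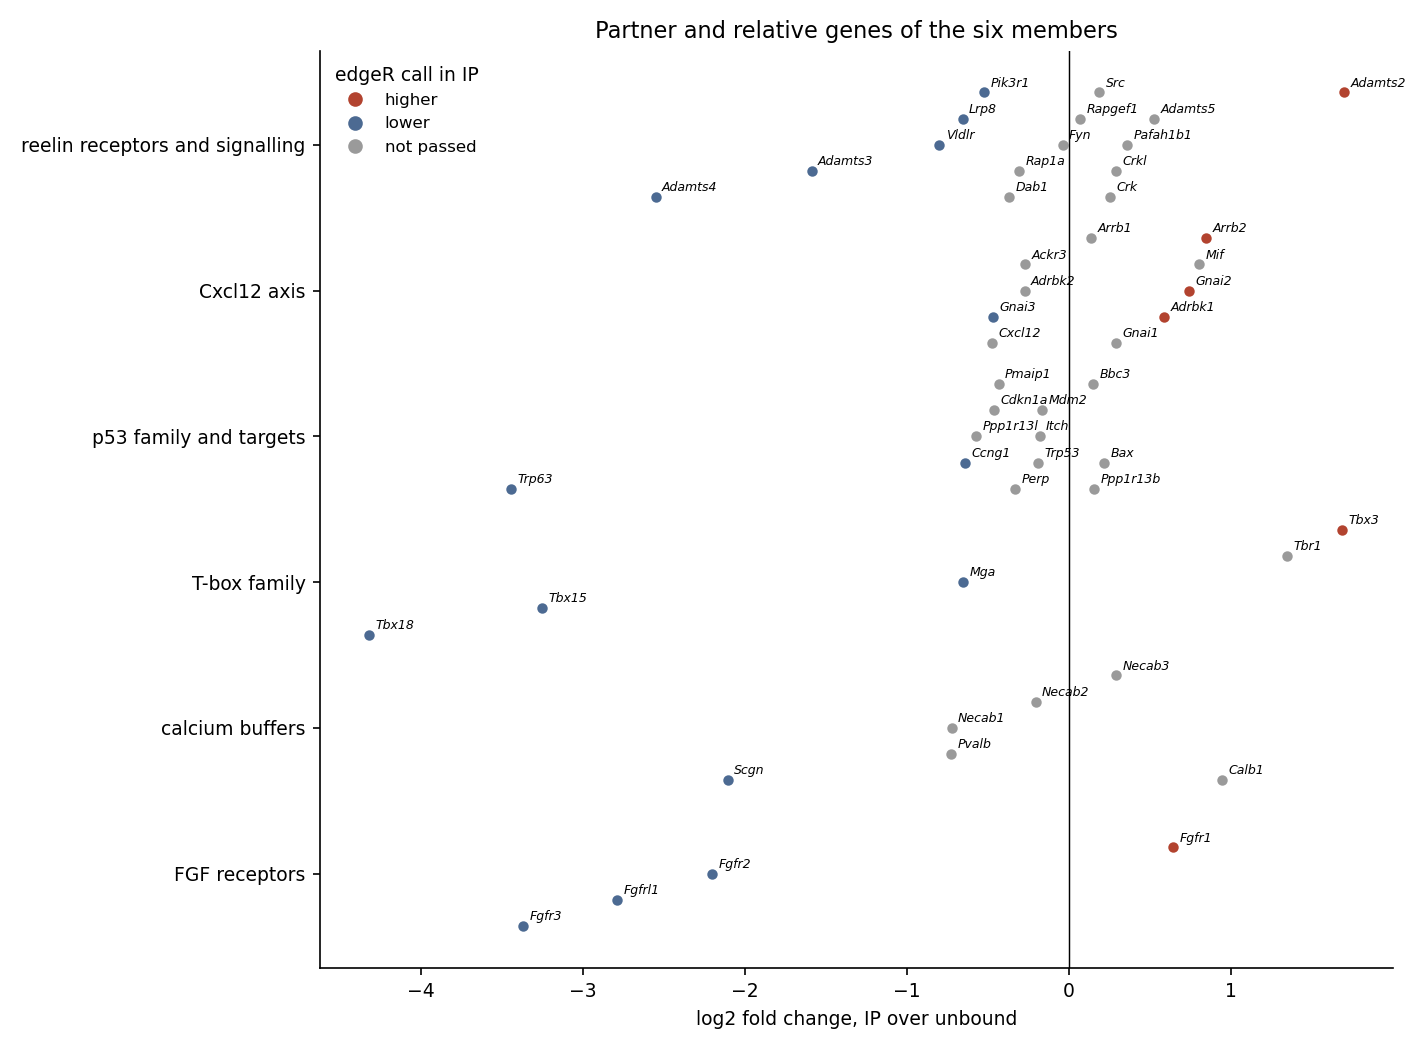
Log2 fold change of IP over unbound for each tested gene of the 6 lists of partners and relatives, coloured by the edgeR call (adjusted p under 0.05, Benjamini-Hochberg). Vertical spread within a list serves legibility only. The reelin receptors Vldlr and Lrp8, Trp63 and 3 of 4 FGF receptor genes are called lower, and Adamts2 and Tbx3 have the largest values among genes called higher.

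Markers of cells in which the members are known were read beside them. Of 8 markers of layer 1 and neurogliaform interneurons, which use Reln and Ndnf, 5 fell and 0 rose, with summed levels of 552 to 697 CPM in IP, against 1369 to 1736 CPM in unbound RNA. The number that fell was between 2 and 7 when 1 library was left out, 7 without unbound replicate 3 being the highest. It was also 7 in the replicate block, where Slc32a1 (log2 -1.20) and Lamp5 (-1.05) passed as well. Gad1, Gad2 and Slc32a1 of this list are shared by GABAergic neurons in general. Most of the sums came from Gad2, with 371, 487 and 399 CPM in IP, against 1254, 1181 and 1042.5 CPM in unbound RNA. Of 8 tested markers of intermediate progenitors and cycling cells, which use Eomes, 1 rose, Neurog2 (log2 2.65), and 2 fell, Mki67 (-2.04) and Top2a (-1.87), calls that Neurog2 lost without IP replicate 3 and Top2a without IP replicate 1, IP replicate 2 or unbound replicate 2, while the sums were 29.1 to 34.7 CPM in IP, against 22.0 to 35.9 CPM in unbound RNA. Without unbound replicate 3, 1 rose and 4 fell. Neurog1 was at 0 in every IP library.

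Of 6 thalamic markers, in whose tissue Calb2 is known, 5 fell and 0 rose (454 to 622 CPM in IP, against 648 to 1036 CPM in unbound RNA). Without unbound replicate 3 the remaining one, Tcf7l2, was called higher (log2 1.10, adjusted p = 0.0022, edgeR). Of 7 tested markers of cerebellar neurons, which include cells with Eomes and Calb2, Cbln1 and Cbln3 rose, En2 and Lmx1a fell and 3 did not pass, with sums of 174 to 255 CPM in IP, against 60.4 to 67.8 CPM in unbound RNA. Most of the IP sums came from Cbln1 alone, with 221, 204 and 148 CPM in IP, against 33.9, 24.2 and 24.1 CPM in unbound RNA. En2 had 10.5 CPM in unbound replicate 3, where unbound replicates 1 and 2 had 1.203 and 0.47 CPM, and its call was lost without it (log2 -2.26, adjusted p = 0.051, edgeR), without any of the 3 IP libraries (adjusted p 0.051 to 0.127, edgeR) and in the replicate block (adjusted p = 0.081, edgeR). Lmx1a and Cbln3 each lost their call in some of the fits without 1 library. Gabra6 was at 0 in all libraries but unbound replicate 3. Of 6 tested mammillary markers 4 rose and 0 fell, with sums of 131 to 287 CPM in IP, against 15.6 to 23.7 CPM in unbound RNA. Nkx2-1 lost its call in the replicate block (adjusted p = 0.054, edgeR) and without IP replicate 3 or unbound replicate 2, and Foxa1 gained one without unbound replicate 3 (log2 2.15, adjusted p = 0.0056, edgeR). None of these markers was used in a test of its part in the members' levels.

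The share of calls that were higher in IP depended on scaling. It was 47.6% of all calls with TMM and 10.5% when libraries were scaled on 11 pan-neuronal genes, which lowered the median of all genes by 0.52 on the log2 scale. Of those 11 genes 7 rose and 1 fell with TMM. The scaling used their summed reads, most of which came from Snap25, with 11385, 12235 and 12787 CPM in IP, against 7478, 8442 and 8945 CPM in unbound RNA. Under pan-neuronal scaling Eomes stood at 3.54, Trp73 at 2.16, Calb2 at 2.04, Ndnf at 1.47, Reln at -1.01 and Cxcr4 at -1.46, each lower by about the shift of all genes. In the same scaling 9 of the 15 reelin pathway genes, 7 of the 12 p53 family and target genes and 3 of the 10 Cxcl12 axis genes were called lower. Over all genes 7041 of the 16991 tested were called lower in it, so nothing about these lists is read from the counts. No member changed sign under any of the alternatives in which it had a value, 15 for each but Cxcr4, which had 14.

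**Figure D5:**
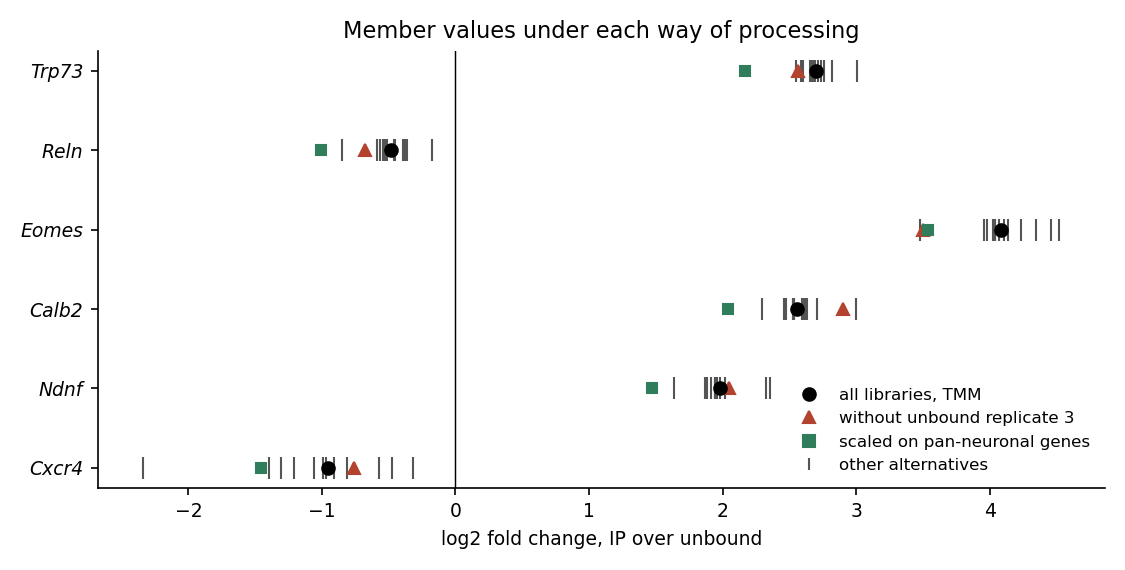
Log2 fold change of IP over unbound for the 6 members with all libraries and TMM scaling (black), without unbound replicate 3 (triangles), scaled on pan-neuronal genes (squares) and in the other alternatives (ticks). Eomes ranges from 3.48 to 4.52, and Cxcr4 has the widest range, from -2.34 to -0.32.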

How the data were processed

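Each deposited table holds raw counts of reads by gene. Per the submitters' processing notes, STAR 2.0.0e and HTSeq were used with mm10. Not given in the sources used here are the gene annotation, strandedness and overlap rule. Entries that name no gene (52.3% to 55.0% of listed reads) stayed out of library sizes and tests.

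The members and gene lists were chosen with earlier results of these data known. All genes were tested with edgeR 4.0.16 (R 4.3.3) on the deposited counts: TMM, filterByExpr (minimum count 10, minimum total 15), robust quasi-likelihood fit on group, and Benjamini-Hochberg adjustment over 16991 genes at 0.05. The members were part of this fit, but their p-values and calls are left out because the fractions helped to choose them. The SE was derived as the absolute log2 fold change over the root of F. Intervals cover counting error only.

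Replicate numbers are shared between groups. Same-numbered libraries deviated together (correlations over genes of 0.14, 0.16 and 0.21), above the limit of 0.1 set for taking them as pairs. No label gives the pairing, so the main fit used group alone, and the fit blocked by replicate number was run as an alternative. Lane follows the numbers (lane 4 for replicate 2), and p-values measure only the spread between these libraries. Alternatives were other scalings and filters, DESeq2 1.42.0, the replicate block, lane and left-out libraries. Up to 4 genes per list with the lowest adjusted p were named, plus called genes of the opposite direction. Others, such as Ebf3, Lhx1, Tbr1, Calb1 and Dab1, and the TATAA search, were chosen after values were seen. Lengths and positions come from GENCODE M21 (mm10), matched by symbol for 23113 of 32531 features.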

Additional observations from a re-analysis of the deposited data

How the results depend on the processing

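Of the 15 alternatives, scaling on pan-neuronal genes moved the number of genes called by more than 1.5 times, to 823 higher and 7041 lower, against 3586 and 3943 with TMM. With the replicate number as a block 3952 were higher and 4017 lower. Leaving out each library gave 2489 to 4139 higher and 3263 to 4448 lower. Of the 10 other genes of Cajal-Retzius neurons, 4 rose with all libraries, 2 to 8 when a library was left out, 8 without both libraries of replicate 3 and 5 with the replicate block, and 0 fell throughout. The members kept their sign, and 2 values moved by more than the spread between replicates: Trp73 to 2.16 under pan-neuronal scaling and Cxcr4 to -2.34 without IP replicate 2. Cxcr4 was not tested with at least 1 CPM in 3 libraries required. Calls that differed in the block for described genes and lists are given beside them. Others included Pafah1b1 (log2 0.35, adjusted p = 0.041, edgeR) and Rbfox3 (log2 0.54, adjusted p = 0.041, edgeR), both as rises. Eomes in unbound replicate 3 and Cxcr4 throughout rest on few reads, which limits how well their folds are known. With 3 libraries a group, one library can decide a call.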
